A study of Danio rerio with 96 samples.

Results

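Gene expression was compared between irradiated zebrafish larvae that had or had not received folic acid (FA) before the irradiation, at 60 h post-fertilization (hpf), 24 h after the X-ray (XR) dose. The members were the 6 libraries of the FA + XR group and the 6 libraries of the XR group at that age, 12 of the 96 libraries of the study, and every gene with enough counts was tested, 16319 in all. The study asked whether FA given ahead of XR changes the response of the embryo, at 36, 37, 60 and 84 hpf. Each library came from the total RNA of 1 whole larva of an albino line, homozygous for the slc45a2 b4 allele and so without melanin, and all groups carried that genotype. XR larvae received 8 Gy at 36 hpf. FA + XR larvae received the same dose and 200 μM FA from 1 h before it, Cont larvae received neither, and FA larvae received FA alone, with 6 larvae in each group. The groups were kept in separate wells, so well and treatment cannot be told apart, and the p-values cover the spread between larvae only.

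Folic acid is reduced in the cell to tetrahydrofolate, which carries single carbon units for the synthesis of purines and thymidylate and for the remethylation of homocysteine to methionine. Ionizing radiation breaks DNA and forms reactive oxygen species, and the damaged cell switches on genes that halt the cycle or start apoptosis. At the age sampled the larva has just hatched or is about to hatch, its photoreceptors are switching on their opsins, its muscle fibres are assembling myosin with the help of the chaperone Hsp90, and it lives on yolk lipid packed into lipoproteins.

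No gene passed edgeR's test. With edgeR's quasi-likelihood test on the 24 libraries of the 4 groups, 0 of 16319 genes (0%) had a Benjamini-Hochberg adjusted p below 10%, and the smallest adjusted p was 0.148, shared by hsp90aa1.1 and gsta.2. At an unadjusted p below 0.05, edgeR gave 273 genes (1.67%) higher and 232 genes (1.42%) lower in FA + XR than in XR. Together these were 505 of the 16319 genes, in this fit fewer than the share of about 0.05 that would be reached with no effect. DESeq2 called 2 genes, limma-voom with quality weights 5, and 3 rounds of DEGES normalization before edgeR's exact test 14, and edgeR's quasi-likelihood fit on the 12 compared libraries alone 3. At an unadjusted p below 0.05 DESeq2 had 632 genes, also under that share. The share was exceeded with limma-voom (1725 genes), with DEGES (1090) and on the 12 libraries alone (998 of 16620). An exact permutation test of the 12 libraries, gene by gene, also exceeded it, with 1104 genes below 0.05. Leaving out 1 library at a time gave 0 genes in 8 of the 12 fits and 1 gene in each of the other 4, which were gsta.2 without the XR library of 3808846 counts or the FA + XR library of 10842760 counts, hsp90aa1.1 without the XR library of 3752534 counts, and PANX1 without the FA + XR library of 3559535 counts. The log2 fold change of FA + XR over XR had a median of 0.01 over all genes, with 8412 genes (51.5%) above 0 and 7907 (48.5%) below 0. The 2 groups did not overlap in log2 CPM, the base-2 logarithm of the counts scaled to a common library size, for 35 genes (0.214%) that were higher and 33 genes (0.202%) that were lower in FA + XR. Since edgeR called no gene on the 24 libraries, the values that follow describe single genes and gene classes, the calls of other tools are given beside the genes that lead a paragraph, and the counts of class members are to be read against these percentages.

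Library totals at 60 hpf ran from 1031534 to 4318528 counts in XR and from 3162596 to 16470291 in FA + XR, and 14834 to 18508 and 17816 to 20518 genes had at least 1 count. The irradiation could be checked on mdm2 (ENSDARG00000033443), a gene induced by DNA damage, which lay 1.97 above Cont in XR on the log2 scale. Of the 24 libraries, 3 stood apart, namely the FA libraries of 5295573 and 2586967 counts, with TMM scaling factors under 0.7, and the FA + XR library of 3559535 counts, with the lowest mean level of neuronal genes among the 6 FA + XR larvae. Without these 3 libraries 16404 genes were tested, 444 (2.71%) were higher and 337 (2.05%) lower in FA + XR at an unadjusted p below 0.05, and 6 genes had an adjusted p below 10%. They were gsta.2, PANX1, PLOD2, hsp90aa1.1, sox12 and RBP2 (ENSDARG00000070038). That alternative was chosen after the data had been seen.

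The gene with the smallest unadjusted p was hsp90aa1.1 (ENSDARG00000010478), the cytosolic Hsp90 that in zebrafish muscle folds myosin. Its log2 CPM was 6.31, 6.61 and 7.45 (lowest, median and highest) in XR and 5.43, 5.88 and 6.30 in FA + XR. All 6 FA + XR larvae lay below all 6 XR larvae, although the gap between the nearest pair was small. The log2 fold change was -0.91 (SE 0.18), with an exact two-sided permutation p of 0.00216, the smallest that 6 against 6 can give and the value of any gene whose groups do not overlap. XR larvae stood 0.89 above Cont on the log2 scale, and FA larvae without XR differed from Cont by -0.08. At 84 hpf, in other larvae, the FA + XR mean was not below the XR mean, with a log2 fold change of 0.38 (SE 0.18). The gene was called by DESeq2 (adjusted p 0.0057), limma-voom (0.0114), DEGES (0.0136), edgeR on the 12 compared libraries (0.0363) and edgeR without the 3 libraries that stood apart (0.0575). It was not called by edgeR with RLE or upper quartile factors, with edgeR's own filter, without a filter or without low-depth libraries. Of the 12 fits that left out 1 library, 1 called it. Leaving out 1 library at a time kept the 60 hpf value between -1.01 and -0.74.

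**Figure D1:**
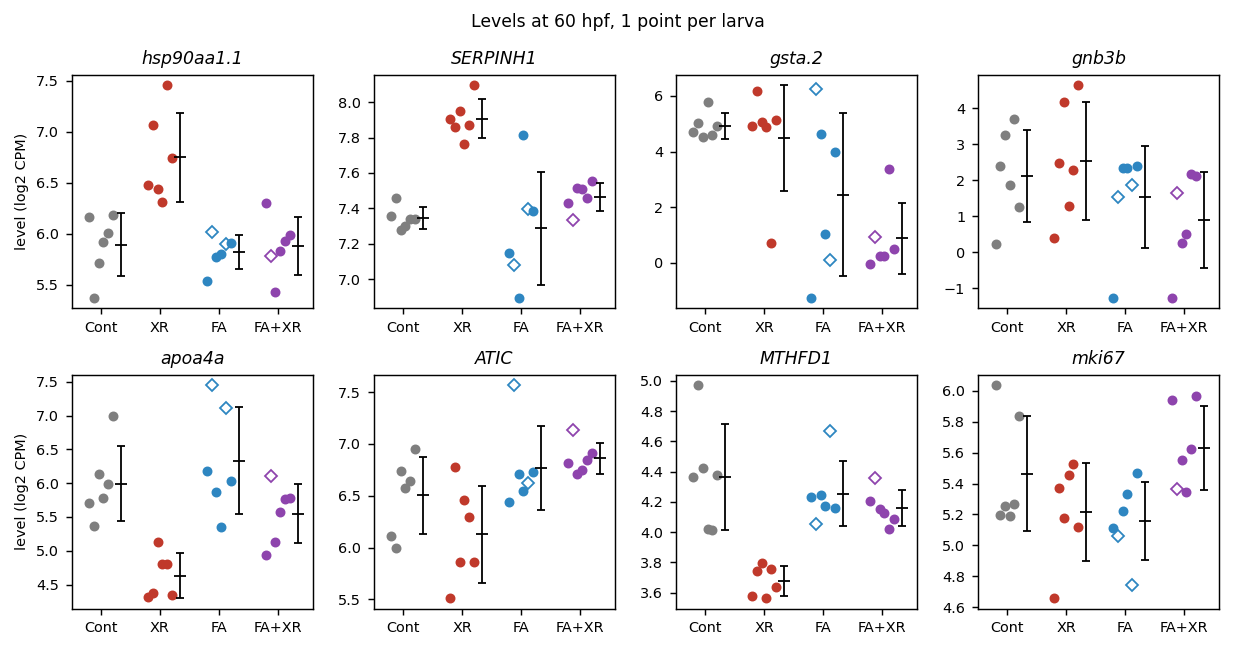
Log2 CPM (vertical axes) of 8 genes in each of the 24 libraries of 60 hpf, by group (Cont, XR, FA, FA + XR on the horizontal axis). Each point is 1 larva, the open diamonds are the 3 libraries that stood apart, and the black mark is the mean ± SD of 6 larvae. For hsp90aa1.1, SERPINH1 and MTHFD1 the FA + XR points do not overlap the XR points, whereas for gnb3b, gsta.2 and mki67 they do.

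The cytosolic chaperone class, which includes hsp90aa1.1, held log2 fold changes from -1.05 to 2.26. Of 47 members tested, 31 had a log2 fold change below 0, 5 were lower at an unadjusted p below 0.05 and 0 were higher, against 1.42% and 1.67% of all genes. The class median was -0.09. The 4 beside hsp90aa1.1 were AHSA1 (ENSDARG00000100317), which activates the Hsp90 ATPase, SMYD1 (ENSDARG00000091253), a methyltransferase that works with Hsp90 on myosin, the inducible hsp70.3 (ENSDARG00000021924) and another cytosolic Hsp90, listed as HSP90AA1 (ENSDARG00000024746). SMYD1 ran from 4.03 to 5.68 in XR and from 3.70 to 4.70 in FA + XR, with a log2 fold change of -0.55 (SE 0.24). The fold change of AHSA1 was -0.53 (SE 0.23), that of hsp70.3 was -0.86 (SE 0.40) and that of HSP90AA1 was -0.55 (SE 0.27). In each of these 4 genes the groups overlapped. XR minus Cont was positive for all 5 genes, from 0.11 for HSP90AA1 to 1.16 for hsp70.3, on XR libraries that both comparisons share. The groups of 1 other member did not overlap either. HSPA8 (ENSDARG00000068992), the abundant Hsc70, had 6 FA + XR larvae at 10.57 to 10.83 above 6 XR larvae at 10.36 to 10.55, a difference of 0.18 (SE 0.15). HSP90AB1 (ENSDARG00000029150), the constitutive Hsp90, differed by 0.21 (SE 0.17), and neither passed the unadjusted threshold. The class median lay between -0.15 and 0.02 when 1 library at a time was left out, and only without the XR library of 3808846 counts was it above 0. For the cytosolic chaperonin and prefoldin (13 genes) and for the chaperones of the endoplasmic reticulum (32 genes) the medians were -0.03 and -0.02.

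**Figure D2:**
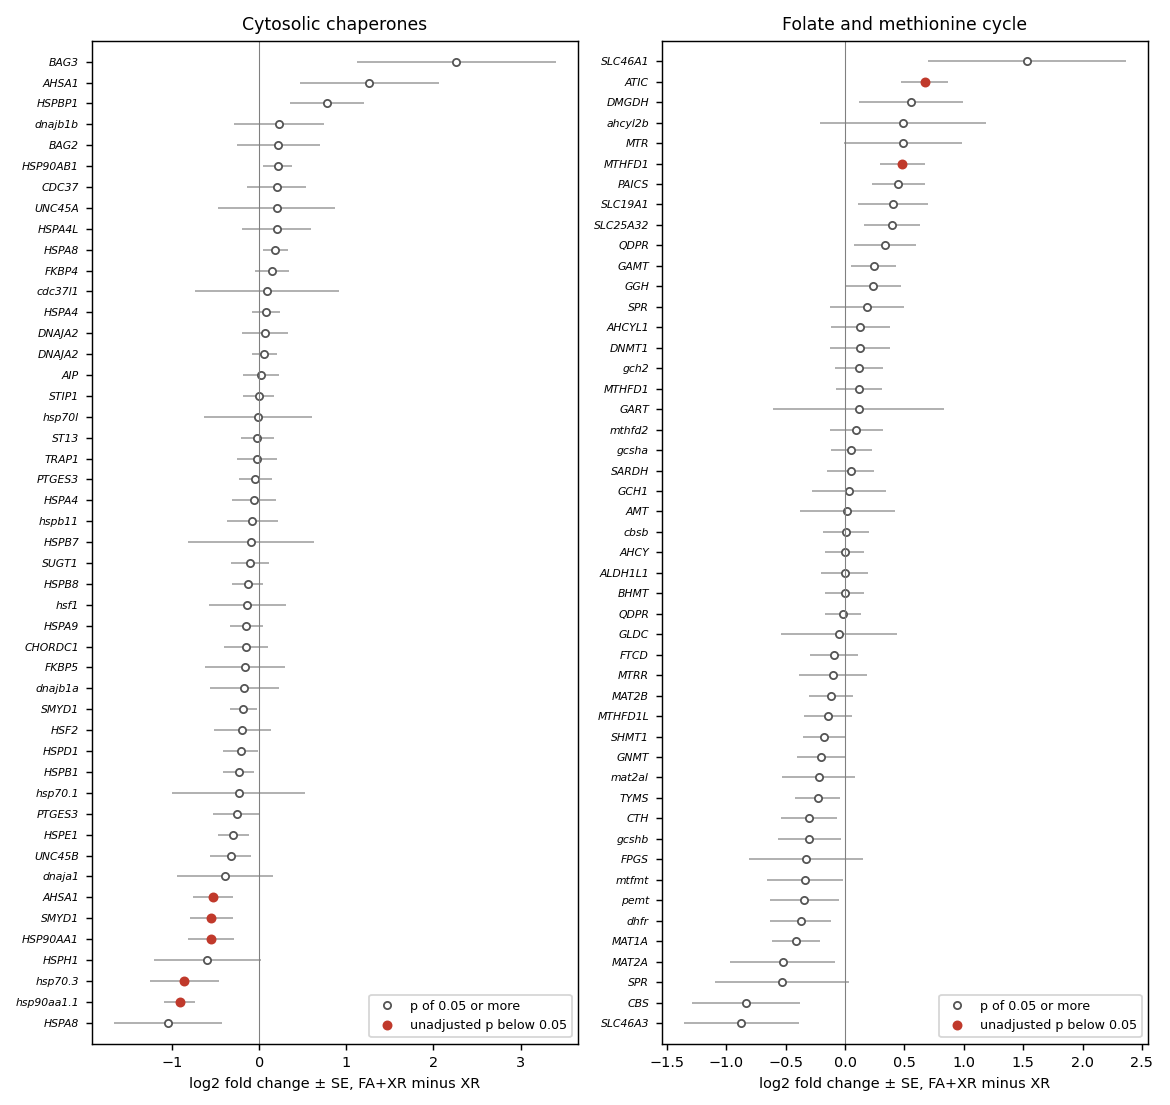
Log2 fold change of FA + XR over XR at 60 hpf (horizontal axis, ± SE derived from edgeR's F statistic) for members of the cytosolic chaperones and of the folate and methionine cycle (1 row per gene, 6 larvae per group). Red points had an unadjusted p below 0.05, and these were 5 chaperones, all lower, and 2 folate genes, both higher.

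SERPINH1 (ENSDARG00000019949), the endoplasmic reticulum chaperone of procollagen also known as Hsp47, had small spreads and no overlap. It stood at 7.76, 7.89 and 8.10 log2 CPM in XR and at 7.33, 7.48 and 7.55 in FA + XR. Every FA + XR larva was below every XR larva, and the SDs were 0.11 and 0.08. The log2 fold change was -0.44 (SE 0.14), while XR stood 0.57 above Cont. DEGES with edgeR's exact test called it (adjusted p 0.0400), and DESeq2 and limma-voom did not. Collagens, its clients, varied in sign. The type I chain col1a1a (ENSDARG00000012405) ran from 8.44 to 8.69 in XR and from 8.71 to 9.47 in FA + XR, with no overlap. COL6A3 (ENSDARG00000077139), a chain of the microfibrillar type VI collagen, and the small proteoglycan DCN (ENSDARG00000012066) differed by 1.15 (SE 0.32) and 0.61 (SE 0.22). COL4A1 (ENSDARG00000055009), a basement membrane collagen, and LOX (ENSDARG00000003259), which cross-links collagen, were lower by point estimate, at -1.14 (SE 0.50) and -1.15 (SE 0.52). Over the 44 collagen and connective tissue genes 27 were above 0 and 17 below, 4 reached an unadjusted p below 0.05 in each direction, and the median was 0.07. PLOD2 (ENSDARG00000011821), the lysyl hydroxylase of collagen telopeptides, depended on 1 larva. It ran from 0.64 to 3.35 in XR. In FA + XR it was at -1.27, which stands for 0 counts, in 2 larvae, at -0.52 to 0.85 in 3 others and at 3.37 in the library of 3559535 counts. Its log2 fold change was -1.75 (SE 0.79) with that library and -3.55 without the 3 libraries that stood apart, where the adjusted p was 0.0305 with edgeR.

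The other gene with an adjusted p of 0.148 was gsta.2 (ENSDARG00000039832), a glutathione S-transferase of the alpha class, which conjugates glutathione to electrophiles. In XR the 6 larvae had 34, 222, 115, 114, 5 and 167 counts, in order of rising library total, and in FA + XR they had 2, 5, 3, 3, 106 and 17. Most XR larvae were high and most FA + XR larvae were near 0. The XR larva of 5 counts lay within the FA + XR range, so the groups overlapped. In log2 CPM the levels were 0.72 to 6.18 in XR and -0.04 to 3.38 in FA + XR. The FA + XR larva at 3.38, from the deep library of 10842760 counts, was still below the next lowest XR larva, at 4.88. The log2 fold change was -3.52 (SE 0.72), with an exact permutation p of 0.00649. Cont larvae ran from 4.51 to 5.79, and FA larvae without XR spread from -1.27 to 6.24, from 0 counts to 219. Larvae at 5 counts or fewer were found in FA, in FA + XR and, in 1 larva, in XR. DEGES with edgeR's exact test (adjusted p 0.0071), edgeR on the 12 compared libraries (0.0079), edgeR without a filter (0.0034) and edgeR without the 3 libraries (0.0279) called gsta.2, and DESeq2 and limma-voom did not. Its neighbour in name, gsta.1 (ENSDARG00000090228), did not share the pattern, at 0.42 (SE 0.23), and at 84 hpf the log2 fold change of gsta.2 was -0.27.

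Several other genes with large fold changes were of the same on or off kind and rested on few counts. LRRC58 (ENSDARG00000063509), a leucine-rich repeat protein, had -0.51, 1.43 and 2.91 log2 CPM in XR and -1.27, -1.17 and 0.85 in FA + XR, where 3 of the 6 larvae had 0 counts. PANX1 (ENSDARG00000025285), a membrane channel that releases ATP, had -0.68, 1.81 and 3.54 in XR and -1.27, -1.17 and 1.77 in FA + XR. In both genes the XR larvae were mostly above the FA + XR larvae, with overlap, and the fitted log2 fold changes were -3.34 (SE 0.77) and -2.93 (SE 0.78). DESeq2 (adjusted p 0.0900) and limma-voom (0.0972) called LRRC58. Without the 3 libraries that stood apart PANX1 was at -4.27 with an adjusted p of 0.0305 in edgeR. Among the genes that were higher in FA + XR, PPP1R3C (ENSDARG00000071005), which brings protein phosphatase 1 to glycogen, had groups that did not overlap. It stood at -1.27, 1.38 and 2.55 in XR and at 2.69, 2.85 and 3.32 in FA + XR. TP53BP2 (ENSDARG00000009136), an apoptosis-stimulating protein of the ASPP family, had 1.99, 2.32 and 2.82 in XR and 3.12, 3.34 and 3.50 in FA + XR, again without overlap, and a log2 fold change of 0.97 (SE 0.30). The complement component c5 (ENSDARG00000021004) stood at 3.22, 3.57 and 3.94 in XR and at 4.23, 4.43 and 4.66 in FA + XR, also without overlap, with 0.82 (SE 0.26). The SoxC transcription factor sox12 (ENSDARG00000025847) stood at 2.75, 3.42 and 4.38 in XR and at 3.74, 4.63 and 5.04 in FA + XR, where 2 XR larvae were above the lowest FA + XR larva. DEGES with edgeR's exact test called PPP1R3C (adjusted p 0.0400), TP53BP2 (0.0811), c5 (0.0159) and sox12 (0.0811). The sox12 log2 fold change was 1.06 (SE 0.31), and XR stood at -1.12 relative to Cont.

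The genes that use folic acid itself were the next question. Of 49 genes of the folate and methionine cycles tested, 24 had a log2 fold change above 0 and 25 below, the median was -0.00, and 2 were higher and 0 lower at an unadjusted p below 0.05. The 2 were ATIC and MTHFD1. ATIC (ENSDARG00000016706), which uses 10-formyltetrahydrofolate in the last steps of purine synthesis, stood at 5.51, 6.08 and 6.77 in XR and at 6.71, 6.83 and 7.13 in FA + XR. MTHFD1 (ENSDARG00000018266), the trifunctional enzyme that interconverts the folate carbon units, stood at 3.56, 3.69 and 3.80 in XR and at 4.02, 4.14 and 4.36 in FA + XR. The MTHFD1 groups did not overlap, and in ATIC only the highest XR larva reached the FA + XR range. The fold changes were 0.67 (SE 0.20) and 0.48 (SE 0.19). The exact permutation p of ATIC was 0.00649, from the same larvae whose values led to its naming, so it is no separate evidence. PAICS (ENSDARG00000033539), an earlier purine enzyme, was at 0.45 (SE 0.22), and another purine enzyme, GART (ENSDARG00000101089), at 0.11 (SE 0.72). Neither passed even the unadjusted threshold. Nor did the proton-coupled folate transporter SLC46A1 (ENSDARG00000026149), at 1.53 (SE 0.83), or the reduced folate carrier SLC19A1 (ENSDARG00000033993), at 0.40 (SE 0.29). Genes of other branches had point estimates below 0: dhfr (ENSDARG00000004251), which reduces folate, at -0.37 (SE 0.26) and CBS (ENSDARG00000053500), which takes homocysteine into cysteine, at -0.83 (SE 0.46). MAT1A (ENSDARG00000039605), the liver enzyme that makes S-adenosylmethionine, stood at 5.72, 6.06 and 6.49 in XR and at 5.36, 5.76 and 6.05 in FA + XR, with overlap. Its log2 fold change was -0.41 (SE 0.20) at 60 hpf and 0.76 at 84 hpf, where it was the 1 gene of 16127 tested (0.0062%) with an adjusted p below 10% in edgeR, while DESeq2 called 3. MTHFD1 had -0.45 at 84 hpf, also of the other sign. Without the 3 libraries 4 folate genes were higher and 1 lower at an unadjusted p below 0.05, and the median stayed at -0.01.

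Photoreceptor genes were the class with the most members past the unadjusted threshold. Of 55 tested, 36 were below 0, 13 were lower and 0 higher at an unadjusted p below 0.05, where 1.42% of all genes were lower, and the median was -0.23. The transducin subunits of cones, which pass the signal from the opsin, were gnb3b (ENSDARG00000002696), GNGT2 (ENSDARG00000103543) and GNAT2 (ENSDARG00000042529). The gnb3b level was 0.38, 2.38 and 4.64 in XR and -1.27, 1.07 and 2.16 in FA + XR, and that of GNGT2 4.02, 5.54 and 6.74 in XR and 3.66, 4.39 and 4.70 in FA + XR. Both genes were lower in most FA + XR larvae, and both groups overlapped, the highest XR larva being far above the highest FA + XR larva. The log2 fold changes were -2.03 (SE 0.58) for gnb3b, -1.35 (SE 0.44) for GNGT2 and -1.20 (SE 0.44) for GNAT2. Among the opsins, the red-cone opn1lw2 (ENSDARG00000044861), the blue-cone opn1sw2 (ENSDARG00000017274) and the green-cone opn1mw1 (ENSDARG00000097008) were at -1.18, -1.1 and -0.95. Other members were the disc rim protein PRPH2 (ENSDARG00000038018) at -2.55, the opsin kinase grk1b (ENSDARG00000104685) at -2.03, cone arrestin ARR3 (ENSDARG00000056511) at -1.08, and the visual cycle genes RPE65 (ENSDARG00000007480), rbp4l (ENSDARG00000044684) and rlbp1b (ENSDARG00000045808) at -0.94, -0.62 and -0.48. The lowest PRPH2 value in each group was -1.27, which stands for 0 counts, and the highest was 3.09 in XR and 0.25 in FA + XR. Of the 13, only rlbp1b, a retinaldehyde-binding protein, had groups that did not overlap. Its level was 4.76 to 5.12 in XR and 4.23 to 4.73 in FA + XR.

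The photoreceptor class score, the mean over members of the log2 CPM centred on each gene's mean over the 12 libraries, showed how the larvae were placed. In XR it was -0.41, 0.12, 0.48, 0.02, -0.12 and 0.52 in order of rising library total, and in FA + XR it was 0.05, -0.14, -0.16, -0.12, -0.13 and -0.12. The FA + XR larvae lay close together inside the wide XR range, and the XR libraries of 3290048 and 4318528 counts were the highest. Leaving out the XR library of 4318528 counts left 4 members of the class lower at an unadjusted p below 0.05. Without the 3 libraries that stood apart 14 were lower and the median was -0.22. In larvae without XR the FA minus Cont median of the same class was -0.26, or -0.06 without 2 of the FA libraries, and at 84 hpf the FA + XR minus XR median was -0.02. In whole larvae, fewer cells of a type and less RNA per cell cannot be told apart. Crystallins and membrane proteins of the lens, the other eye class, had 48 of 56 genes below 0 and a median of -0.17, but 1 gene lower at an unadjusted p below 0.05. That class rested on the FA + XR library of 3559535 counts, whose lens score was -0.90 against -0.05 to 0.19 in the other FA + XR larvae, and without the 3 libraries the median was -0.06.

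**Figure D3:**
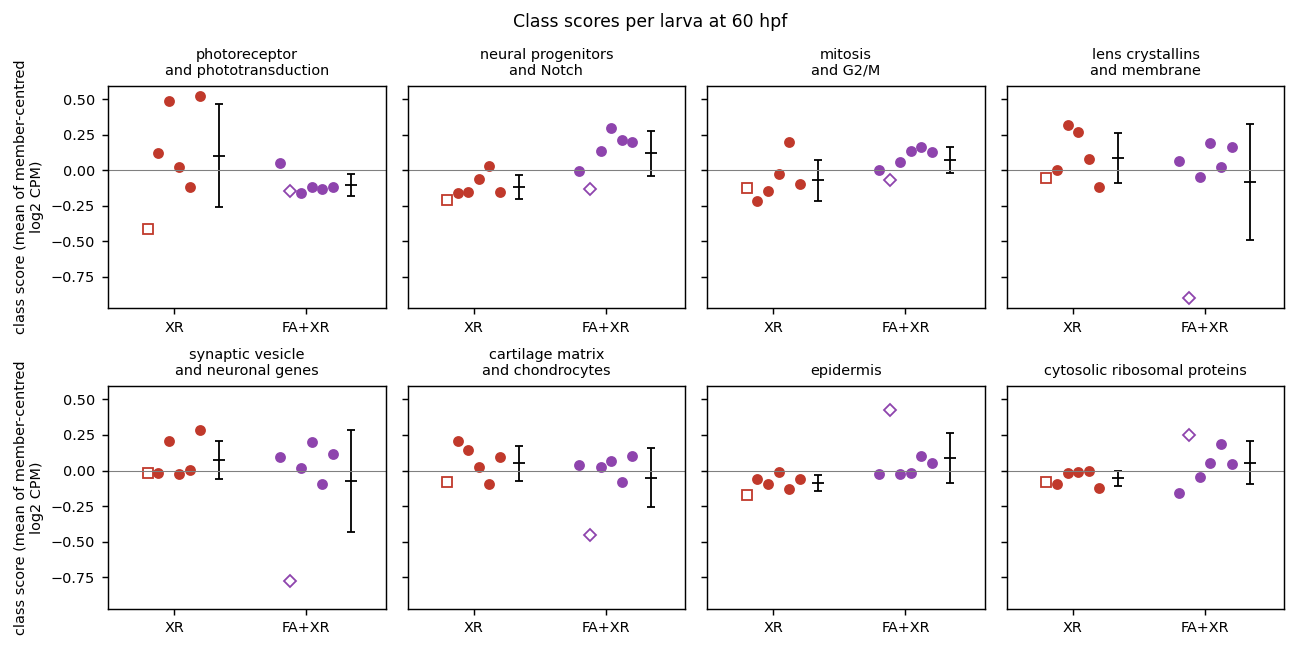
Class score of 8 gene classes (vertical axes, mean centred log2 CPM of the members) in each of the 6 XR and 6 FA + XR larvae of 60 hpf. The open diamond is the FA + XR library of 3559535 counts and the open square the XR library of 1031534 counts, the smallest. In the neural progenitor class 4 FA + XR larvae lie above the highest XR larva, as do 4 in the ribosomal class and 3 in the epidermis class. In the lens and epidermis classes the open diamond is farthest from the rest, and in the ribosomal class it is the highest larva.

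Genes of neural progenitors and of Notch signalling lay on the other side. Of 52 tested, 41 were above 0 (51.5% of all genes were), the median was 0.17, and 2 were higher and 0 lower at an unadjusted p below 0.05. The class score was -0.21 to 0.03 in XR and -0.13 to 0.30 in FA + XR. Of the 6 FA + XR larvae, 4 were above the highest XR larva, and the library of 3559535 counts was the lowest of its group. Without the 3 libraries the median was 0.26 and 7 genes were higher at an unadjusted p below 0.05. Among these genes was her15.1 (ENSDARG00000054562), a target of Notch that holds cells in the progenitor state, with 3.78, 4.32 and 4.78 in XR and 4.65, 4.90 and 5.19 in FA + XR. The groups overlapped in the upper XR larvae, and the fold change of her15.1 was 0.52 (SE 0.22). The same direction was seen, without passing the threshold, in her4.1 (ENSDARG00000056732) at 0.36 (SE 0.20), in the retinal ganglion cell factor atoh7 (ENSDARG00000069552) at 0.70 (SE 0.38) and in the neuronal differentiation factor NEUROD4 (ENSDARG00000003469) at 0.35 (SE 0.23). In the XR minus Cont comparison, which shares the XR larvae, 8 of the 52 were above 0 and the median was -0.44, with her4.1 at -1.26, atoh7 at -1.53 and NEUROD4 at -1.02. In larvae without XR the FA minus Cont median was -0.14, but 0.02 without the 2 FA libraries that stood apart. At 84 hpf the FA + XR minus XR median was 0.01.

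Mitotic genes also lay mostly above 0. Of 62 tested, 49 were above 0, the median was 0.10, and 3 were higher and 0 lower at an unadjusted p below 0.05. These were tacc3 (ENSDARG00000005454), a protein of the spindle, mki67 (ENSDARG00000091150), the coat of mitotic chromosomes and the usual marker of cycling cells, and bub1bb (ENSDARG00000074927), of the spindle checkpoint. The mki67 level was 4.66, 5.27 and 5.53 in XR and 5.34, 5.59 and 5.96 in FA + XR, and tacc3 stood at 4.04, 4.29 and 4.81 in XR and at 4.52, 4.80 and 5.06 in FA + XR. Both were higher in most FA + XR larvae, with overlap, and the fold changes were 0.40 (SE 0.18) and 0.46 (SE 0.21). For bub1bb the fold change was 0.44 (SE 0.21). The class score was -0.21 to 0.20 in XR and -0.07 to 0.16 in FA + XR, and the highest value of all 12 belonged to the XR library of 3808846 counts. Left-out libraries moved the median between 0.06 and 0.16 and the count of higher genes between 0 and 5. The FA minus Cont median of the class was -0.18, and the interaction of FA with XR in mki67 was 0.72, which did not pass the adjusted threshold in edgeR. That interaction contains the FA + XR minus XR value for which mki67 was named.

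The apolipoprotein apoa4a (ENSDARG00000101160), made in the yolk syncytial layer and the gut, was at 4.32, 4.60 and 5.13 in XR and at 4.94, 5.67 and 6.10 in FA + XR. Only 1 FA + XR larva was within the XR range. The log2 fold change was 0.94 (SE 0.28), with an exact permutation p of 0.00433, XR stood at -1.45 relative to Cont, and the FA + XR minus XR value at 84 hpf was 0.48. DEGES with edgeR's exact test (adjusted p 0.0159) and edgeR on the 12 compared libraries (0.0922) called apoa4a, and DESeq2 and limma-voom did not. Of the 28 apolipoprotein and lipoprotein assembly genes, 1 was higher and 1 lower at an unadjusted p below 0.05. The lower one was APOD (ENSDARG00000060350), a lipocalin, at -0.72 (SE 0.30).

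Pancreatic and intestinal genes had negative class scores in all FA + XR larvae but 1. The exocrine pancreas enzymes (16 genes) and the enterocyte genes (21 genes) had medians of -0.11 and -0.20, and of -0.31 and -0.34 without the 3 libraries. The pancreas score was -0.37 to -0.11 in 5 FA + XR larvae and 0.54 in the library of 3559535 counts, against -0.13 to 0.46 in XR. The enterocyte score was -0.24 to -0.13 in the 5 and 0.52 in that library, against -0.57 to 0.43 in XR. In trypsin, prss1 (ENSDARG00000042993), XR larvae were at 3.18, 4.15 and 4.60 and FA + XR larvae at 1.90, 3.27 and 3.64, a log2 fold change of -0.93 (SE 0.29). The retinol carrier of enterocytes RBP2 (ENSDARG00000070038) was at 6.53, 6.83 and 7.23 in XR and at 5.32, 6.04 and 7.83 in FA + XR, where the highest value was again the library of 3559535 counts. The log2 fold change of that copy was -0.35 (SE 0.33), and -0.84 without the 3 libraries, where the adjusted p was 0.0846 with edgeR. Another copy, RBP2 (ENSDARG00000093774), was at -0.96 (SE 0.42) and DGAT2 (ENSDARG00000018846), which forms triglycerides, at -1.90 (SE 0.83). DGAT2 rested on few counts, from -1.27 to 2.31 log2 CPM in XR and from -1.27 to 1.15 in FA + XR. Without the FA + XR library of 16470291 counts the pancreas median was 0.10, so its sign depended on single larvae.

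**Figure D4:**
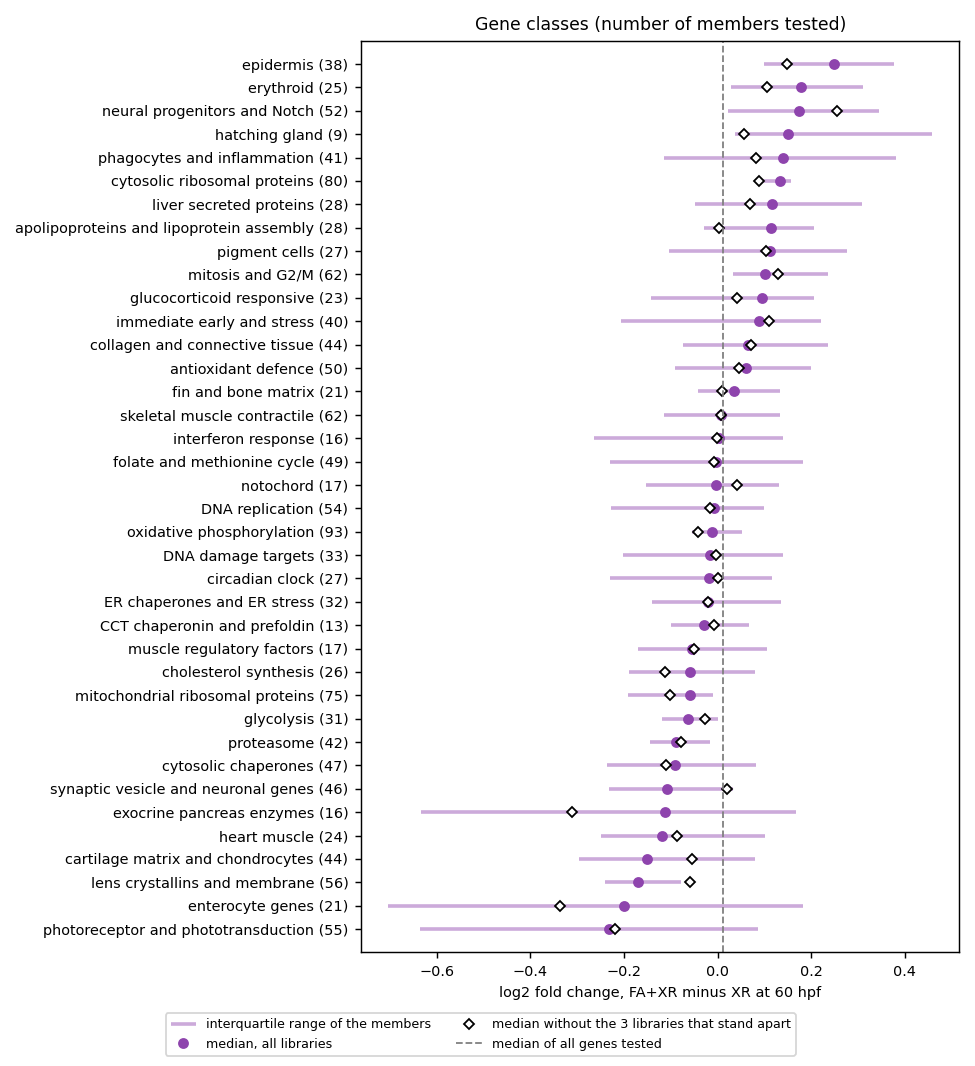
Median log2 fold change of FA + XR over XR at 60 hpf (horizontal axis) in 38 gene classes. The purple point uses all 24 libraries in the fit, the bar is the interquartile range of the class members, the open diamond is the median without the 3 libraries that stood apart, and the dashed line is the median of all genes tested (0.01). Most classes keep their side of the line in both fits, among them the photoreceptor, enterocyte, neural progenitor, mitotic, epidermis, erythroid, ribosomal and lens. The apolipoprotein, notochord, fin and synaptic classes do not. The FA + XR library left out was chosen for its low synaptic level, so the synaptic shift follows from the choice.

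The cytosolic ribosomal proteins, the epidermis and the erythroid genes had most members above 0, and the epidermis had the largest absolute median of the 38 classes, but 0 or 1 member of each passed the unadjusted threshold. Of 80 ribosomal proteins 78 were above 0, with a median of 0.13 and 0 genes past the unadjusted threshold. Of 38 epidermal genes 31 were above 0 (median 0.25), with 1 higher at an unadjusted p below 0.05, the keratin krt8 (ENSDARG00000058358) at 0.42 (SE 0.18). The keratins cyt1 (ENSDARG00000092947) and krt91 (ENSDARG00000036830) did not overlap between the groups, and cyt1 ran from 12.54 to 12.64 in XR and from 12.76 to 13.72 in FA + XR. Of 25 erythroid genes, hemoglobins among them, 20 were above 0, with a median of 0.18. The library of 3559535 counts had the highest FA + XR score in each of the 3 classes, at 0.25 for ribosomal proteins, 0.43 for epidermis and 0.51 for erythroid genes. Without the 3 libraries the medians were 0.09, 0.15 and 0.11. In larvae without XR, FA minus Cont had medians of 0.60, 0.52 and 0.57 in these classes, and 0.22, 0.12 and 0.24 without the 2 FA libraries. The same library had low scores for synaptic (-0.77), notochord (-0.71) and cartilage (-0.45) genes, and the share of these tissues in that larva's RNA was not tested. Its low synaptic score is no separate result, since it was set apart for its low level of that class of neuronal genes. The synaptic median was -0.11, and 0.02 without the 3 libraries, a rise that this rule favoured in advance.

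Over the 62 contractile genes of skeletal muscle 34 were above 0 and 28 below, with a median of 0.01 and 0 genes past the unadjusted threshold. In the 24 heart muscle genes the median was -0.12, also with 0 past the threshold. Of 42 proteasome subunits 36 were below 0, with a median of -0.09, and of 75 mitochondrial ribosomal proteins 58 were below 0, with a median of -0.06. None of the 42 or the 75 had an unadjusted p below 0.05.

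Genes of white blood cells, pigment cells and the hatching gland gave single members. Of 41 genes of phagocytes and inflammation, 27 were above 0 and 2 were lower at an unadjusted p below 0.05, both at few counts. They were the granulin grna.1 (ENSDARG00000089362) at -1.51 (SE 0.59) and the chemotactic protein LECT2 (ENSDARG00000090889) at -1.73 (SE 0.82). Lysozyme, lyz (ENSDARG00000057789), of macrophages and neutrophils, had the other sign, at 0.50 (SE 0.25). Among 27 pigment cell genes the only 1 past the unadjusted threshold was aox5 (ENSDARG00000071475), a marker of xanthophores, at 0.58 (SE 0.22). Of 9 hatching gland genes 1 was higher and 1 lower at an unadjusted p below 0.05. The lower one was tcnba (ENSDARG00000068088), a vitamin B12 binding protein, which ran from 0.21 to 4.42 in XR and from 0.54 to 2.51 in FA + XR, with a log2 fold change of -1.74 (SE 0.57), or -1.62 without the 3 libraries. The higher one, the hatching enzyme he1.1 (ENSDARG00000023656), was at 7.48, 8.07 and 8.63 in XR and at 7.80, 8.44 and 10.15 in FA + XR. The highest FA + XR value was the library of 3559535 counts, and the log2 fold change of 0.70 (SE 0.28) was 0.20 without the 3 libraries. The cathepsin L gene ctslb.4 (ENSDARG00000100833), 1 of a family of similar copies between which reads may be split, had its highest FA + XR value in the same library, and its log2 fold change of 1.1 (SE 0.29) was 0.56 without the 3 libraries.

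The jaw cartilage was the tissue the study was built around. The study scored the jaw at a later age and after a higher FA concentration than these whole-larva libraries had. Of 44 cartilage matrix and chondrocyte genes, 17 were above 0 and 27 below, with 0 past the unadjusted threshold in either direction and a median of -0.15, or -0.06 without the 3 libraries. The type II collagen copies COL2A1 (ENSDARG00000069093) and COL2A1 (ENSDARG00000011407), both also in the notochord class, were at -0.15 (SE 0.21) and 0.13 (SE 0.21). The cartilage matrix protein MATN1 (ENSDARG00000030215) was at -0.50 (SE 0.45). The cartilage score was -0.09 to 0.21 in XR and -0.08 to 0.10 in the 5 FA + XR larvae other than the library of 3559535 counts.

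Target genes of the DNA damage response had small differences between XR and FA + XR. The ubiquitin ligase mdm2 was at 5.82, 6.13 and 6.27 in XR and at 5.85, 6.00 and 6.09 in FA + XR, with -0.11 (SE 0.16). Other strong XR responders, CCNG1 (ENSDARG00000076667), rps27l (ENSDARG00000100513) and PHLDA3 (ENSDARG00000037804), stood 1.54, 2.24 and 1.92 above Cont in XR, and FA + XR differed from XR by 0.10, 0.14 and -0.13. Over the 33 targets 14 were above 0 and 19 below, with a median of -0.02 and 0 genes past the unadjusted threshold.

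Among 50 antioxidant genes, 2 were higher and 2 lower at an unadjusted p below 0.05 and the median was 0.06. Ferritin FTH1 (ENSDARG00000007975), which stores iron, was at 2.98, 3.42 and 3.68 in XR and at 3.70, 3.86 and 4.14 in FA + XR, without overlap. Methionine sulfoxide reductase MSRB1 (ENSDARG00000045160) was the other higher gene, at 0.53 (SE 0.25). The extracellular enzymes SOD3 (ENSDARG00000079183), which removes superoxide, and gpx3 (ENSDARG00000043342), which removes peroxides, were at -1.06 (SE 0.44) and -0.77 (SE 0.36).

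Whether FA acted differently with and without XR was tested as the interaction of both factors in the same fit. No gene of 16319 (0%) had an adjusted p below 10% in edgeR, the smallest being 0.481. At an unadjusted p below 0.05 there were 1046 of the 16319 genes, where a share of about 0.05 would be reached with no effect. DESeq2 called 1 gene. The estimates were -0.83 for hsp90aa1.1, -0.42 for SERPINH1 and -2.79 for gsta.2. These genes were named for low values of FA + XR minus XR, which is part of the interaction, so the negative signs are no separate evidence. FA alone against Cont called 237 genes (1.45%), of which 215 were higher and 22 lower, but 0 without the 3 libraries, 0 with limma-voom and 1049 with DESeq2. Leaving out single libraries moved that count from 0, without the Cont library of 1100461 counts, to 820, without the Cont library of 10806851 counts.

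The other ages were measured in other larvae. At 84 hpf large values were seen in FKBP5 (ENSDARG00000028396), a co-chaperone of steroid receptors, and ponzr3 (ENSDARG00000088589), with log2 fold changes of 1.89 and 2.19 there (adjusted p 0.362 and 0.242 in edgeR, not called) and of -0.16 and -0.42 at 60 hpf. The chaperone class had a median of 0.09 at 84 hpf, with 3 of 46 genes higher and 0 lower at an unadjusted p below 0.05, and of -0.03 at 37 hpf. Of the 15776 genes tested at both 60 and 84 hpf, 297 were higher and 266 lower at 84 hpf by that threshold, and 7881 were below 0. The exocrine pancreas median was -0.48 at 84 hpf, with 21 of 24 genes below 0 and 1 lower at an unadjusted p below 0.05. The progenitor and mitotic medians were 0.01 and -0.05 at 84 hpf. At 37 hpf, 1 h after XR, edgeR called 0 genes, with 517 of 14380 at an unadjusted p below 0.05, and DESeq2 and limma-voom called 1 each.

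**Figure D5:**
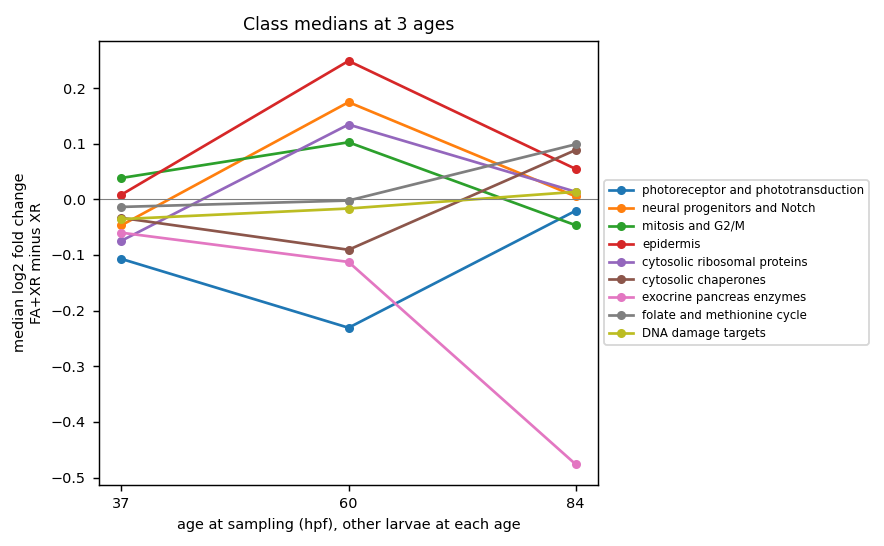
Median log2 fold change of FA + XR over XR (vertical axis) at 37, 60 and 84 hpf (horizontal axis) for 9 gene classes, each age from 12 other larvae. The neural progenitor median is 0.17 at 60 hpf and 0.01 at 84 hpf, and the photoreceptor median is -0.23 and -0.02.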

How the data were processed

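The authors extracted total RNA from single larvae and deposited 1 table of estimated counts per gene, quantified on the Ensembl transcripts of GRCz11 for 25907 genes and 96 libraries. The quantifier is not given in the sources used here. From this table the 24 libraries of 60 hpf were taken, 3 values in the table that were not whole were rounded, and genes whose counts averaged 2.5 or more over the libraries fitted were kept. Groups came from the sample labels, and the columns carry no replicate number. All 4 groups were fitted with edgeR 4.0.16 (TMM, quasi-likelihood), with Benjamini-Hochberg adjustment over all genes tested and a threshold of 10%. Levels are log2 CPM with a prior count of 2. Exact permutation tests were two-sided. They used the same 12 libraries whose values led to the naming of genes, so their p-values are no separate evidence. The steps were tested on simulated data. DESeq2 1.42.0, limma 3.58.1 with quality weights and other filters and normalizations were tried. Symbols came from a reference table for 23608 IDs, and capital symbols can be shared by several IDs.

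The naming rule gave 71 genes, and further class members are named for context. The 71 were genes of the study, genes called under any alternative, the 12 with the smallest p in each direction, and class members. Up to 4 members with the smallest p were taken from each class, and only those at an unadjusted p below 0.05 were among the 71. The members, the 38 classes and the rule were chosen with earlier results of these data known. Total counts of 1031534 to 16470291 per larva in the compared groups limit genes at few counts. Nothing says that the larvae came from separate clutches. Results for some genes are not reported here, and no sequences or coordinates are shown.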

Additional observations from a re-analysis of the deposited data

Results flagged for a closer look

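Of 138 groups of 6 libraries, 7 had a library far from the other 5 by Dixon's criterion, and about 1 in 20 groups is reached by chance. The XR library of 3808846 counts was low in gsta.2 (ENSDARG00000039832), at 0.72 log2 CPM with the next at 4.88, and in APOD (ENSDARG00000060350), at 3.01 with the next at 3.56. The FA + XR library of 10842760 counts was high in gsta.2, at 3.38 with the next at 0.94. The FA + XR library of 3559535 counts was high in ctslb.4 (ENSDARG00000100833), at 7.69 with the next at 6.00, and in the hatching enzyme he1.1 (ENSDARG00000023656), at 10.15 with the next at 8.55. The XR library of 1031534 counts, the smallest of its group, was low in the complement factor cfb (ENSDARG00000055278), at 3.21 with the next at 4.42. The FA + XR library of 3792315 counts was low in the semaphorin sema4ab (ENSDARG00000062352), at 2.15 with the next at 2.99.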

How the results depend on the processing

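No paired analysis was possible because nothing in the header of the count table tells which replicate a library is. For FA + XR against XR at 60 hpf, where edgeR called 0 genes, DESeq2 called 2, limma-voom 5, no filter 1, DEGES 14, a fit on the 12 libraries alone 3 and the fit without the 3 libraries that stood apart 6, and leaving out single libraries gave 0 to 1. RLE or upper quartile factors, the filter of edgeR, the 5% threshold and leaving out libraries under 50% of the median total gave 0. The 273 genes higher at an unadjusted p below 0.05 became 678 without a filter, 816 with limma-voom, 602 with DEGES, 550 with the 12 libraries and 444 without the 3 libraries (232 to 311 with single libraries left out), and the 232 lower ones 811, 909, 488 and 448 under the first 4 of these (184 to 267). FA against Cont (237 genes) gave 2 at 5%, 1049 with DESeq2, 445 with RLE factors, 520 with upper quartile factors, 429 with the filter of edgeR, 0 with limma-voom, 3 with DEGES, and 0 with the 12 libraries alone, without low-depth libraries or without the 3 libraries. Single libraries left out moved it from 0 (without the Cont library of 1100461 counts) to 820 (without that of 10806851). The interaction gave 1 gene with DESeq2, 1 without a filter and 0 to 1 with single libraries left out, and DEGES and the fit on 12 libraries were not run for it. At 84 hpf (1 gene) DESeq2 gave 3, no filter 6, limma-voom 2, DEGES 12, the 12 libraries 7 and single libraries left out 1 to 3. At 37 hpf (0 genes) the values were 1 with DESeq2, 5 without a filter, 1 with limma-voom, 1 without low-depth libraries and 0 to 3 with single libraries left out. The cause of these differences was not tested.

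Of 1550 values of named genes under the alternatives, 1511 kept direction and side of the threshold, 35 passed it and 4 changed sign. Those 4 were in PTGES3 (ENSDARG00000089626), from -0.152 to 0.0698 with single libraries left out and 0.0196 and 0.0523 in 2 of these fits, and in FKBP5 (ENSDARG00000028396), from -0.42 to 0.59. Class medians moved by less than the SD of the class score between larvae in 872 of 874 cases. The exceptions were the exocrine pancreas at -0.53 with limma-voom, and muscle regulatory factors, which ran from -0.0923 to 0.0847 with single libraries left out. That limit is wide beside most medians, so the count says little about their stability. Changes of sign fall within it, as in the cytosolic chaperones (-0.15 to 0.02) and the exocrine pancreas (-0.31 to 0.10) with single libraries left out. Depth limits the genes at few counts, such as LRRC58 and PANX1.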

Other observations

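Other genes also had small unadjusted p-values, some of them with large fold changes at low levels, and each is a value with no explanation. The NLR family gene nlrc3l1 (ENSDARG00000086553) ran from -1.27 to 1.06 log2 CPM in XR and from 0.87 to 2.51 in FA + XR, with a log2 fold change of 2.22 (SE 0.57). REEP6 (ENSDARG00000087349), which shapes the endoplasmic reticulum, ran from 1.65 to 4.03 in XR and from 0.78 to 1.80 in FA + XR, with -1.62 (SE 0.44). The membrane protease fap (ENSDARG00000078468) was at -1.15 (SE 0.34) and the carnitine transporter family member slc22a21 (ENSDARG00000094112) at -1.28 (SE 0.37). The LIM domain protein CSRP2 (ENSDARG00000011961) and the kinase MAP4K5 (ENSDARG00000039125) were higher in every FA + XR larva than in any XR larva. Their log2 fold changes were 0.61 (SE 0.22) and 0.93 (SE 0.34). DEGES with edgeR's exact test called nlrc3l1 (adjusted p 0.0961), REEP6 (0.0811), CSRP2 (0.0961) and MAP4K5 (0.0961), but not fap or slc22a21.

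Across 7652 genes with a mean of at least 3 log2 CPM, the log2 fold changes of FA + XR over XR and of FA over Cont at 60 hpf, which share no library but were normalized together, had a Pearson correlation of 0.155, and of 0.0467 without the 3 libraries that stood apart. With the fold changes of FA + XR over XR at 84 hpf, from other larvae, the correlation was 0.0586, and with those at 37 hpf, over 7643 genes, it was -0.00378. These are descriptions across genes, which are not independent replicates.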
